A study of Mus musculus with 4 samples.

Results

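Coagulation turns the soluble protein fibrinogen into a fibrin clot, and fibrinolysis dissolves that clot again. The genes described here are 33 listed genes of both systems other than the fibrinogen chains, grouped by role into 13 procoagulant genes, 9 anticoagulant genes, 7 genes of fibrinolysis and its inhibitors, and 4 receptor or signalling genes. A gene was taken as measured where a probe set was annotated to it alone, and the probe set with the highest mean over the 4 arrays stood for it. This held for 29 of the 33 genes, among 30713 genes measured in all, and each of the 29 had 1 such probe set. Klkb1 shared its probe set with Cyp4v3 and is given apart, and Serpine2, F2rl1 and Cpb2 were not analysed here.

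RNA came from whole lung of adult mice of matched age. WT mice (2 arrays) were of the strain labelled C57/BL6, and mice with sickle cell disease (2 arrays, SCD) carried the strain label SCD Tg. The sources used here do not give the transgene, the genetic background of the SCD line, or the sex and ages of the animals, so that the disease genotype and the strain background cannot be told apart. No label says whether the arrays of a group were separate animals beyond the mention of 2 lungs per group, so the p-values measure the spread between these samples, which may be technical. The comparison asked which of these genes differ between SCD and WT lung.

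Coagulation starts when tissue factor (F3), held on cells outside the bloodstream, meets factor VII. Factor X and its cofactor factor V then turn prothrombin (F2) into thrombin, which cuts fibrinogen. The protein C pathway (thrombomodulin, the endothelial protein C receptor, protein C and protein S), the tissue factor pathway inhibitors and the serpins restrain thrombin formation. The plasminogen activators tPA (Plat) and uPA (Plau) turn plasminogen into plasmin, which digests fibrin. Most circulating factors are made in the liver, whereas tissue factor, thrombomodulin, tPA and the thrombin receptor are made by cells of the vessel wall and the lung itself. Sickle cell disease is known as a state of activated coagulation.

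A difference is the SCD mean less the WT mean of log2 values, followed by its moderated standard error (SE) from limma, and a gene passed at a p-value under 0.05 after Benjamini-Hochberg adjustment over all 30713 genes. F3, F5, Plat and Gas6 passed, all of them higher in SCD lung, and no gene of the set passed as lower. These 4 of 29 genes are 13.8%. In either direction, 3.10% of all genes and 3.32% of protein-coding genes passed, and 2.46% of all genes passed as higher. The list and its roles were chosen with earlier results of these data known. These shares and those by role below are therefore descriptive only. Calls were more frequent among brighter genes: of the 11727 genes above the intron control medians on every array, 6.54% passed. Of the 13 genes of the set at that level, 3 passed (23.1%). The median difference of the 29 genes was 0.22, against 0.0020 for all genes. Of the 29 differences, 22 were above 0, as were 15455 of all 30713. Among the 11727 brighter genes, the median difference was 0.04 and 6755 differences were above 0. WT and SCD arrays did not overlap for 17 genes with SCD higher, against 25.3% of all genes. The same held for 3 genes with SCD lower, against 22.5% of all genes. Of the 11727 brighter genes, 4220 did not overlap with SCD higher and 2709 with SCD lower. In bulk lung RNA, more cells of a type and more RNA per cell cannot be told apart.

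Over all genes the fit made 952 calls, of which 757 were higher in SCD lung (79.5%) and 195 lower. Among the 952 were near-identical gene copies with the same values, and 894 distinct sets of values remained. The exon control probe sets were 0.20 higher and the intron control probe sets 0.18 lower on the SCD arrays, as differences of their medians. Taking the exon control shift off every SCD value moved the median of all genes to -0.19 and the share of higher calls to 47.8%. Under that scaling F3, F5 and Plat still passed as higher, with differences of 1.16, 0.87 and 0.87, while Gas6 did not (0.36, adjusted p = 0.0761). The median of the 29 genes was then 0.02, and 15 of the 29 differences were above 0. When SCD replicate 1 was left out, limma made 0 calls and 3308 genes had an unadjusted p under 0.05; when SCD replicate 2 was left out, it made 0 calls with 3271 such genes.

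The intron control medians, from 6.27 to 6.48 on the 4 arrays, served as a mark of background. It is a high mark: 16626 of all 30713 genes lay below it on every array. The antigenomic background probe sets had lower medians, from 3.26 to 3.40, and the lowest value of the 29 genes was 4.15. Of the 29 genes, 13 lay above the intron control medians on every array and 13 lay below the intron control medians on every array. F5, F7 and Plau lay on both sides. F5 lay below the mark on both WT arrays and above it on both SCD arrays, so its position depends on the difference itself. F7 and Plau lay above it on both SCD arrays and on WT replicate 1, and below it on WT replicate 2. For a gene near or below the mark the true change may be larger than the difference printed.

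**Figure D1:**
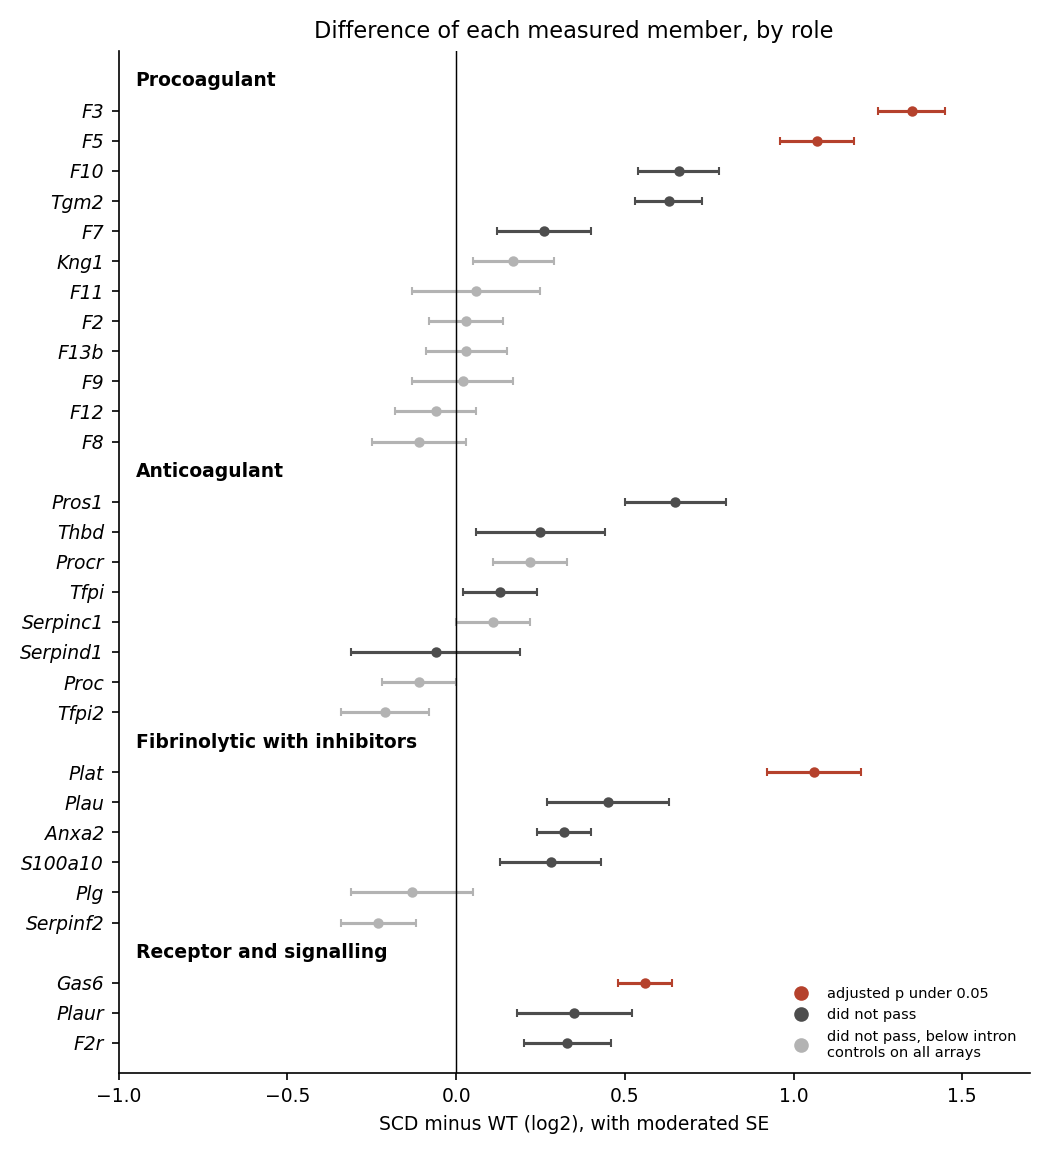
Difference of each of the 29 measured genes, SCD minus WT on the log2 scale (horizontal axis), grouped by role; points are differences and bars the moderated SE, with n = 2 arrays per group. F3, F5, Plat and Gas6, in red, passed an adjusted p of 0.05, and the genes in light grey lay below the intron control medians on all 4 arrays.

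Among the procoagulant genes, the initiator of the cascade and the cofactor of its last steps were higher in SCD lung. Of 12 measured procoagulant genes, F3 and F5 rose, 0 fell and 10 did not pass, with a median difference of 0.11. These calls are 16.7% of the 12, against 3.10% of all genes. F3 encodes tissue factor, the membrane receptor of factor VII. WT arrays read 8.62 and 8.63 for F3, and SCD arrays read 10.03 and 9.92. The groups lay 1.28 apart at their nearest arrays, while the arrays within a group differed little (SD of 0.01 in WT and 0.08 in SCD). F3 rose by 1.35 ± 0.10 (SE, n = 2 per group), or 2.55-fold, with a 95% interval of 1.11 to 1.60 (limma adjusted p = 0.0078). This was rank 225 of 30713 genes by difference. With SCD replicate 1 or SCD replicate 2 left out, the F3 difference was 1.29 or 1.41 and no longer passed (adjusted p of 0.0915 and 0.108).

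F5 encodes factor V, the cofactor that factor Xa needs to make thrombin; platelets carry a store of it. The WT arrays gave 6.20 and 6.23, just below the intron control medians, and the SCD arrays 7.22 and 7.35, above them. F5 rose by 1.07 ± 0.11, or 2.10-fold, with a 95% interval of 0.79 to 1.35 (limma adjusted p = 0.0137). It missed the threshold without WT replicate 1, SCD replicate 1 or SCD replicate 2 (adjusted p of 0.0628, 0.127 and 0.156), with differences from 1.01 to 1.13.

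F10 and Tgm2 came next and stopped just short of the threshold. F10 encodes factor X, the protease that makes thrombin, and measured 6.82 and 6.63 in WT and 7.42 and 7.35 in SCD. The groups did not overlap and the F10 difference was 0.66 ± 0.12 (adjusted p = 0.0621). Tgm2 encodes tissue transglutaminase, an enzyme that cross-links proteins. It was counted in the procoagulant group here but is not one of the clotting factors named above. The Tgm2 values were 8.90 and 8.98 in WT and 9.49 and 9.65 in SCD, again without overlap, for a difference of 0.63 ± 0.10 (adjusted p = 0.0526). Both passed when the dimmer 50% of genes were left out of the fit before adjustment (adjusted p = 0.0371 for F10 and 0.0324 for Tgm2). F7, which encodes the protease partner of tissue factor, is the direct neighbour of F10 among protein-coding genes in the RefSeq gene table. The F7 values were 6.51 and 6.22 in WT and 6.60 and 6.65 in SCD, so the groups lay only 0.09 apart, and the F7 difference was 0.26 ± 0.14 (adjusted p = 0.444). Whether the F7 and F10 differences themselves differ was not tested.

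The other procoagulant genes were dim on all 4 arrays. F2 (prothrombin), F8, F9, F11, F12, F13b (the carrier subunit of the clot cross-linking factor XIII) and Kng1 (kininogen) lay below the intron control medians on every array, with values between 4.15 and 5.68. Their differences ran from -0.11 for F8 to 0.17 for Kng1, and the intervals of all 7 included 0. F2, for example, measured 4.44 and 4.41 in WT and 4.46 and 4.44 in SCD, a difference of 0.03 ± 0.12 with a 95% interval of -0.27 to 0.32. No change of these transcripts was detected, which does not show that there was none. Of all 16626 genes below the intron control medians on every array, 16 passed as higher and 18 as lower (0.20%). The probe set shared by Klkb1, which encodes plasma prekallikrein, and Cyp4v3 gave 7.34 and 7.36 in WT and 7.68 and 7.50 in SCD, and its difference of 0.24 ± 0.14 did not pass in a fit over all 65956 transcript clusters (adjusted p = 0.519).

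**Figure D2:**
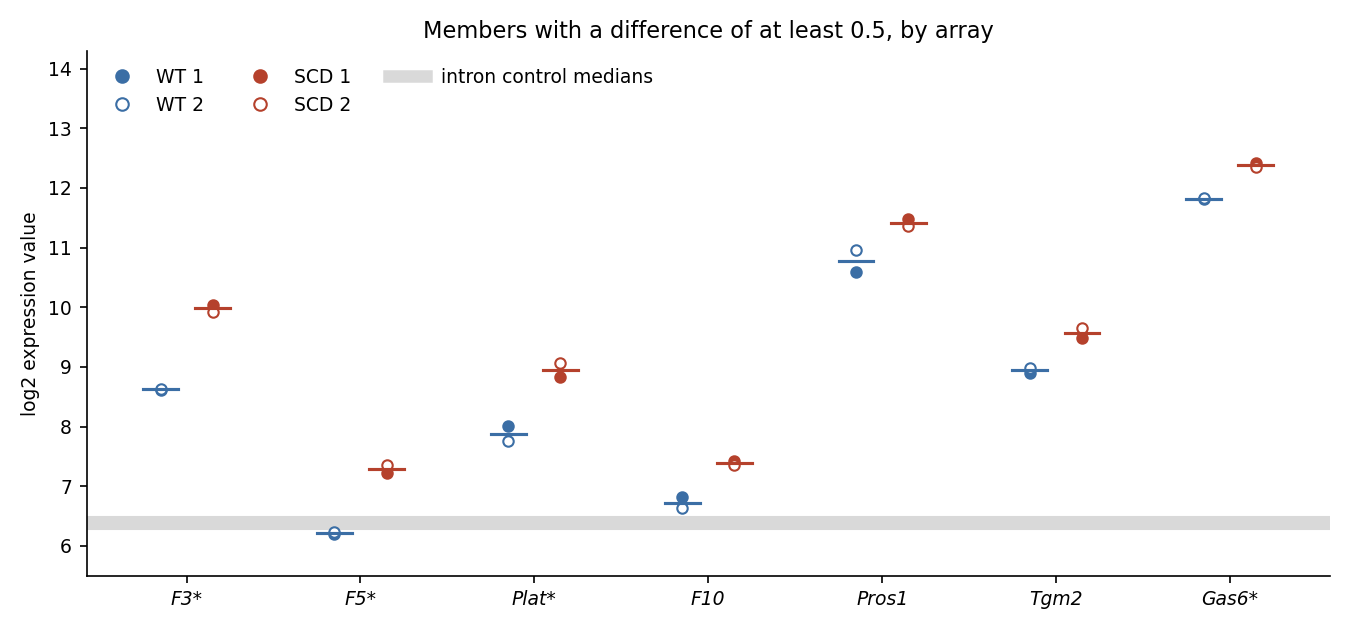
Value on each array (vertical axis, log2 expression value) of the 7 genes whose difference was at least 0.5; dots are arrays, short lines group means, the grey band the range of intron control medians, and a star marks genes that passed. All 7 genes had both SCD arrays above both WT arrays. This largely follows from the pick by difference and is no separate result. The share of 25.3% over all genes is of genes not picked in this way. The F5 values of WT lay just under the grey band.

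RefSeq promoter sequences (build GRCm38.p6, 250 bases before the annotated start to 50 bases after it) were matched to 21 of the 29 measured genes, among them F3, F5 and Gas6 but not Plat. They are shown because these genes moved in the same direction, and so that their letters can be compared. Capitals mark every match, on either strand, to TGACTCA (the AP-1 motif), the NF-kB consensus, GGAANTTCC (a looser form of the NF-kB family), CACGTG (E-box), GGGCGG (GC box) or GAANNTTC (heat shock element core). The 3 sequences, written 5′ to 3′ on the strand of the gene, lie at chr3:121723287-121723586 on the plus strand, chr1:164151585-164151884 on the plus strand and chr8:13494486-13494785 on the minus strand.
F3: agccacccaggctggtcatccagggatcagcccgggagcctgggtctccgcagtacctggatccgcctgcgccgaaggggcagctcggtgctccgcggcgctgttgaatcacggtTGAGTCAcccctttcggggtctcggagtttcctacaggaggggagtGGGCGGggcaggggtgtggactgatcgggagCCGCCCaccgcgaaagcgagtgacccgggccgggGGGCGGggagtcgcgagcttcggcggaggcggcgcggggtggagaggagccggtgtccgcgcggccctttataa
F5: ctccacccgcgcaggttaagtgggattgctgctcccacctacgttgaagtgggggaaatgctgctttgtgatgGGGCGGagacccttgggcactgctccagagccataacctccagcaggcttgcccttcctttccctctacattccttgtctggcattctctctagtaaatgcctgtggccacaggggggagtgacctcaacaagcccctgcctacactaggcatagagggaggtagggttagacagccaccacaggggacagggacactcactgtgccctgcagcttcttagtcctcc
Gas6: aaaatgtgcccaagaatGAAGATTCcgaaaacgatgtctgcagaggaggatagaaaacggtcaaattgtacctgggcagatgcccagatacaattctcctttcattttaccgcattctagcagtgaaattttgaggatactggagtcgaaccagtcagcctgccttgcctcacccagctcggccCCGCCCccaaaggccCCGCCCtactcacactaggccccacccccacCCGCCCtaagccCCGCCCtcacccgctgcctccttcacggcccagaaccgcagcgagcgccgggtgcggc
The F3 promoter held 1 AP-1 match, on the minus strand from 135 to 129 bases before the start, and 3 GC boxes, in a window of 70.3% G and C against a median of 52.7% over all promoters. The F5 promoter held 1 GC box and no other motif searched. The Gas6 promoter held 4 GC boxes and 1 heat shock element core. No match overlapped another in these windows. Over all 32851 promoters of the table, 5.20% held an AP-1 match, 35.7% a GC box and 7.86% a heat shock element core, and 0.155%, 0.928% and 7.15% held the NF-kB motif, its looser form and the E-box. Among the 21 genes, the AP-1 letters also stood in the promoters of Plaur, F2r, Anxa2 and Procr, 5 genes in all with F3 (23.8%). A GC box stood in 9 (42.9%). These shares count a gene once if any of its promoters matched, whereas the shares over all promoters count each promoter. The 2 kinds of share are therefore not in the same unit. A match describes letters only, and no site was measured.

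Anticoagulant genes gave no call in either direction. Of 8 measured, 0 rose, 0 fell and 8 did not pass, with only Pros1 (1 gene) at an unadjusted p under 0.05 in limma. With 3.10% of all genes passing, 0 of 8 is near the share over all genes. Of the 8, 4 lay below the intron control medians on every array, where 0.20% of all such genes passed. The median difference of the 8 genes was 0.12. Pros1, which encodes protein S, the cofactor of activated protein C and also a ligand of the TAM receptors, had the largest value. It measured 10.59 and 10.96 in WT and 11.48 and 11.37 in SCD, a difference of 0.65 ± 0.15 without overlap (adjusted p = 0.107). Of the settings run, Pros1 passed only without WT replicate 2, the higher WT array (difference of 0.84, adjusted p = 0.0470).

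The endothelial side of the protein C pathway was measured through Thbd and Procr. Thbd encodes thrombomodulin, which turns thrombin toward protein C. Its values were 7.53 and 7.52 in WT and 7.50 and 8.04 in SCD, so that 1 SCD array lay at the WT level and the other above it. The Thbd difference of 0.25 ± 0.19 had a 95% interval of -0.25 to 0.74. Procr encodes the endothelial protein C receptor; its arrays gave 5.99 and 5.96 in WT and 6.14 and 6.25 in SCD, all below the intron control medians, with a difference of 0.22 ± 0.11 (adjusted p = 0.414). Proc, the gene of protein C itself, was dim on all arrays (4.81 to 4.97) with a difference of -0.11 ± 0.11.

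Tfpi encodes the main inhibitor of tissue factor with factor VIIa. It measured 8.27 and 8.43 in WT and 8.53 and 8.44 in SCD, and the nearest arrays of the groups were almost equal. The Tfpi difference was 0.13 ± 0.11, with a 95% interval of -0.15 to 0.42 that lies wholly below the interval of F3. The difference between the F3 and Tfpi changes was not tested. Tfpi2, a related inhibitor (4.72 to 5.09, difference of -0.21 ± 0.13), and Serpinc1, the gene of antithrombin (5.17 to 5.34, difference of 0.11 ± 0.11), were below the intron control medians throughout. Serpind1, which encodes heparin cofactor II, varied most within WT, with 8.0 and 7.29 there and 7.52 and 7.65 in SCD. Both SCD values fell between the WT values, and the Serpind1 difference was -0.06 ± 0.25.

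**Figure D3:**
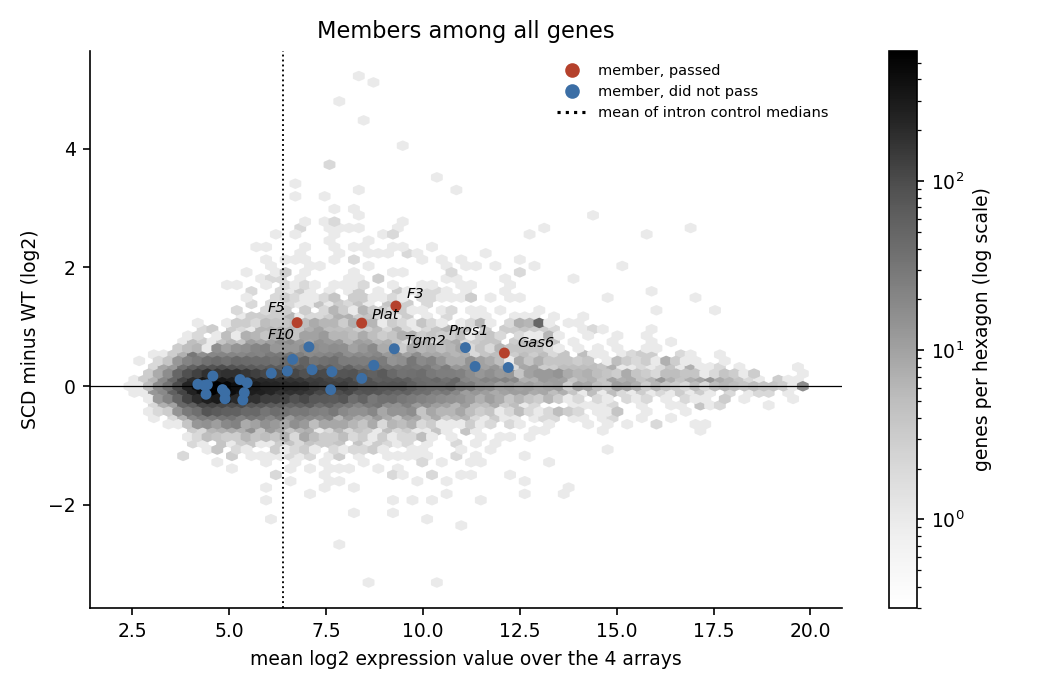
Difference (vertical axis, SCD minus WT, log2) against the mean over the 4 arrays (horizontal axis, log2 expression value) for 30713 genes as hexagons shaded by count, with the 29 genes of the set as dots and the mean of the intron control medians as a dotted line. F3, F5, Plat and Gas6 (red) lie above most genes of their level, the dim genes of the set lie near 0, and the dark hexagon near 13 on the horizontal axis holds 48 gene copies with the same values.

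In fibrinolysis, tissue plasminogen activator was higher in SCD lung, while the other 5 measured genes did not pass and 0 fell. This is 1 of 6 genes (16.7%), against 3.10% of all genes. Plat encodes tPA, which activates plasminogen on fibrin. It measured 8.01 and 7.76 in WT lung and 8.83 and 9.07 in SCD lung. The groups lay 0.82 apart, beyond the SD of 0.17 within each. Plat rose by 1.06 ± 0.14, or 2.09-fold, with a 95% interval of 0.70 to 1.43 (limma adjusted p = 0.0301). It missed the threshold with any 1 array left out: adjusted p was 0.0668 without WT replicate 1, 0.0772 without WT replicate 2, 0.148 without SCD replicate 1 and 0.218 without SCD replicate 2, with differences from 0.94 to 1.19.

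Plau encodes uPA, the activator that works at cell surfaces. It measured 6.63 and 6.19 in WT and 6.91 and 6.81 in SCD, without overlap, and its difference of 0.45 ± 0.18 did not pass (adjusted p = 0.296). It was 0.67 without WT replicate 1 and 0.23 without WT replicate 2. Anxa2 and S100a10 encode the 2 chains of the annexin A2 complex, a cell-surface receptor that brings tPA and plasminogen together. Anxa2 gave 12.11 and 11.97 in WT and 12.35 and 12.36 in SCD, and S100a10 gave 6.82 and 7.17 in WT and 7.21 and 7.34 in SCD. Neither pair of groups overlapped. The Anxa2 difference was 0.32 ± 0.08 (adjusted p = 0.151) and the S100a10 difference 0.28 ± 0.15 (adjusted p = 0.462), which became 0.10 without WT replicate 1 and 0.46 without WT replicate 2. The substrate gene Plg (plasminogen) and Serpinf2, the gene of the plasmin inhibitor alpha-2-antiplasmin, were below the intron control medians on all arrays. Plg values overlapped between groups (4.69 and 4.24 in WT, 4.28 and 4.39 in SCD), whereas Serpinf2 lay at 5.53 and 5.40 in WT and at 5.23 and 5.24 in SCD. The Serpinf2 difference of -0.23 ± 0.12 was the lowest of the 29 genes and did not pass (adjusted p = 0.410).

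Of the receptor and signalling genes, the ligand Gas6 passed and the receptors Plaur and F2r did not. This is 1 of 3 measured genes (33.3%), against 3.10% of all genes. Gas6 encodes a vitamin K-dependent protein related to protein S that activates the TAM receptors Tyro3, Axl and Mertk. The values were 11.81 and 11.83 in WT and 12.41 and 12.35 in SCD, a tight separation with an SD of 0.02 and 0.04. Gas6 rose by 0.56 ± 0.08, or 1.47-fold, with a 95% interval of 0.37 to 0.75 (limma adjusted p = 0.0304). The Gas6 call was the least stable of the 4: it was lost without the intensity trend (adjusted p = 0.0825), with cyclic loess (difference of 0.43, adjusted p = 0.0636) and with any 1 array left out (adjusted p of 0.0811 without WT replicate 1, 0.0611 without WT replicate 2, 0.277 without SCD replicate 1 and 0.240 without SCD replicate 2).

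Plaur encodes the uPA receptor, which holds uPA at the surface of leukocytes and other cells. It measured 8.40 and 8.71 in WT and 9.07 and 8.74 in SCD, so that the groups were separated by 0.03 only, and the Plaur difference was 0.35 ± 0.17 (adjusted p = 0.393). F2r encodes PAR1, the main thrombin receptor of vessel wall cells. F2r gave 11.02 and 11.34 in WT and 11.55 and 11.48 in SCD, with a difference of 0.33 ± 0.13 (adjusted p = 0.298). In both receptors the difference was little larger than the distance between the WT arrays.

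**Figure D4:**
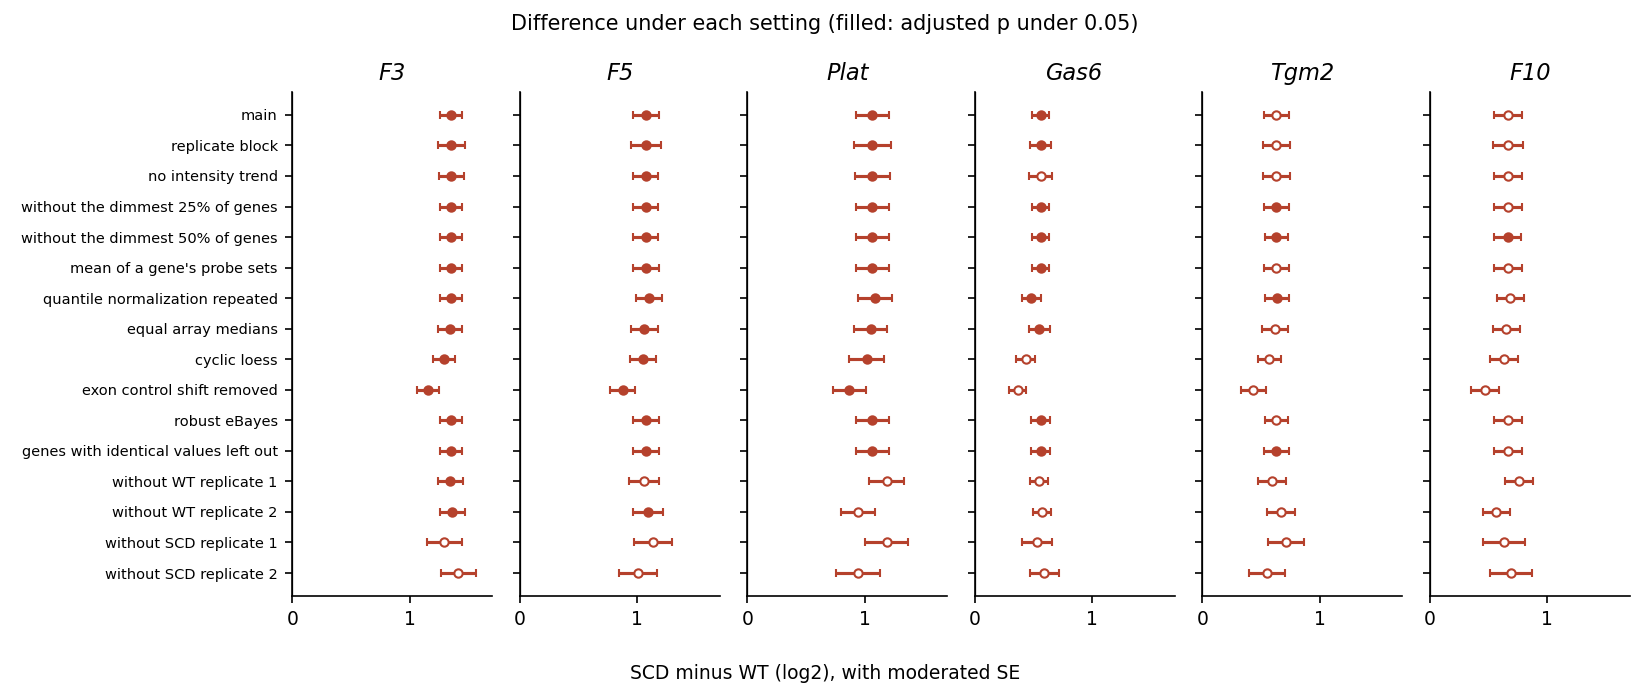
Difference with its moderated SE (horizontal axis, SCD minus WT, log2) of F3, F5, Plat, Gas6, Tgm2 and F10 under the fit as reported (top line, main) and 15 other settings (vertical axis); filled points passed an adjusted p of 0.05 and a missing point means that the gene was left out by the filter. Every difference drawn is above 0, F3 is filled under each setting that keeps both SCD arrays, and no gene is filled when an SCD array is left out.

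Around these genes, 50 further genes of hemostasis were listed, and 46 of them were measured; the others were not analysed here. Of the 46, Fgg, Fga and Nt5e rose, 0 fell and 43 did not pass, or 6.52% passed against 3.10% of all genes, and the median difference was 0.14. The fibrinogen chain genes gave the largest differences of the pathway. Fgg measured 5.66 and 5.95 in WT and 10.95 and 11.10 in SCD, and Fga 5.11 and 4.96 in WT and 8.24 and 8.25 in SCD. Fgb, the remaining chain, stayed below the intron control medians at 4.08 to 4.27 on all arrays. Nt5e encodes CD73, an ectoenzyme that makes adenosine from AMP and thereby restrains platelets and leukocytes. Its values were 9.06 and 9.10 in WT and 9.78 and 9.96 in SCD, and it rose by 0.79 ± 0.10 (limma adjusted p = 0.0294). Entpd1, the gene of CD39, which acts before CD73 on ATP and ADP, had a difference of 0.22 ± 0.08 that did not pass (adjusted p = 0.278).

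Genes of platelet adhesion and of clot stabilisation did not pass. Vwf, the gene of von Willebrand factor, was at 9.73 and 9.82 in WT and at 9.86 and 9.81 in SCD, a difference of 0.06 ± 0.09. F13a1, the gene of the active subunit of factor XIII, had a difference of 0.23 ± 0.14. Gp5, a platelet glycoprotein gene, had a difference of 1.23 ± 0.35 with widely spread arrays (6.42 and 5.46 in WT, 7.40 and 6.94 in SCD; adjusted p = 0.175). Serping1, the gene of the C1 inhibitor that also blocks factor XIIa and kallikrein, was at 14.12 and 14.28 in WT and 14.54 and 14.58 in SCD, with a difference of 0.36 ± 0.08 (adjusted p = 0.103). Kng2, the other kininogen gene of the mouse, was dim but did not overlap (4.79 and 4.85 against 5.37 and 5.37; difference of 0.55 ± 0.11, adjusted p = 0.0829).

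Neither the receptors of Gas6 nor the vitamin K genes Ggcx and Vkorc1 passed. Mertk measured 9.20 and 9.19 in WT and 8.76 and 8.96 in SCD, a difference of -0.34 ± 0.11 (adjusted p = 0.215), and the differences of Axl and Tyro3 were -0.08 ± 0.10 and -0.25 ± 0.12. Mertk and Tyro3 had lower values on both SCD arrays than on the WT arrays, and so did Axl by a gap of 0.0014 only. Groups lay apart with SCD lower in 22.5% of all genes. Tyro3 lay below the intron control medians on every array. Ggcx, the carboxylase of the vitamin K-dependent factors, and Vkorc1, which recycles vitamin K, had differences of -0.21 ± 0.14 and 0.15 ± 0.14. Plgrkt, a plasminogen receptor gene, had a difference of -0.35 ± 0.11 (adjusted p = 0.219), the lowest of the 46.

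**Figure D5:**
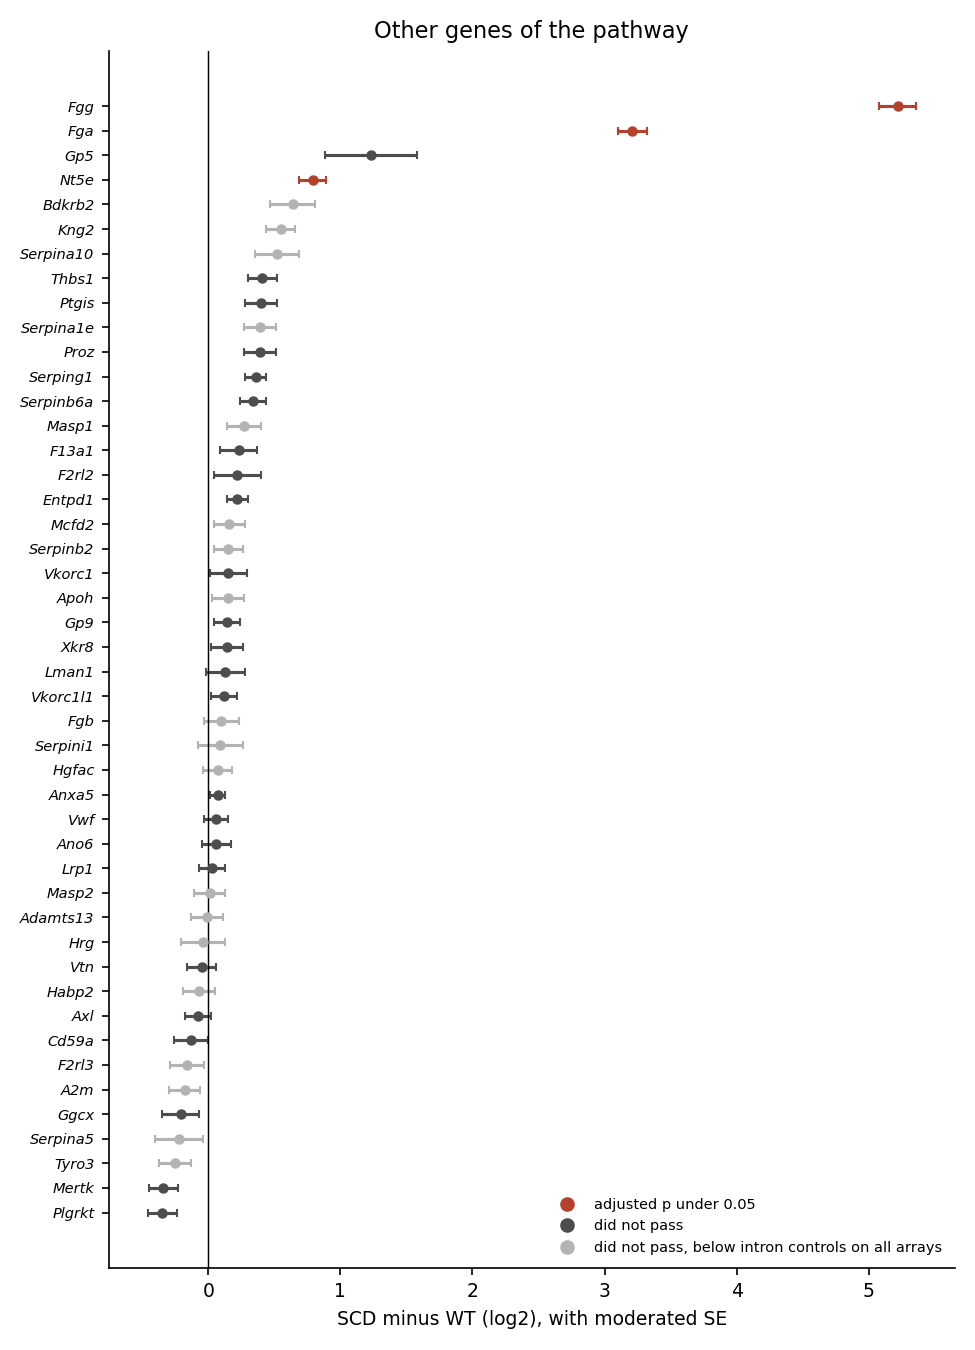
Difference of each of the 46 further genes of hemostasis, SCD minus WT on the log2 scale (horizontal axis), ordered by size; points are differences and bars the moderated SE, with n = 2 arrays per group. Fgg, Fga and Nt5e, in red, passed an adjusted p of 0.05, and most other genes lie within 0.5 of 0.

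Markers of cell types that could carry these transcripts were read from the same fit. For comparison, 3.10% of all genes passed in either direction, and 6.54% of those above the intron control medians on every array. The lungs showed their defining epithelial genes: all 10 alveolar markers lay above the intron control medians on every array, and 0 of them passed as different. Sftpc of that list read 19.93 on all 4 arrays, as did Scgb1a1 of the airway list, and Lyz2 of the macrophage list read 19.75 on all 4, so a difference could not be seen in these genes. Hepatocyte markers, which would mark the main source of circulating factors, were below the intron control medians on all arrays in 8 of 9 cases. The list means were 5.25 and 5.09 in WT and 5.12 and 5.05 in SCD. Alb, among those 8, fell (difference of -0.77 ± 0.12, limma adjusted p = 0.0463). Of 9 platelet and megakaryocyte markers, Ppbp, Pf4 and Tubb1 rose (3) and 0 fell, and the mean of the list was 6.75 and 6.83 in WT and 7.50 and 7.49 in SCD; Itga2b, Gp6 and Nrgn of that list lay below the intron control medians throughout. Of 10 neutrophil markers, 7 rose and 0 fell, with list means of 8.39 and 8.63 in WT and 9.89 and 9.98 in SCD, and with Ly6g and Ngp below the medians. Of 9 monocyte and macrophage markers, Ly6c2 and Ccr2 rose (2) and 0 fell, with a median difference of 0.46 and a list mean of 9.92 over the WT arrays, which lay 0.16 apart, and of 10.52 over the SCD arrays, which lay 0.04 apart. Of 7 airway epithelial markers, Tmem212, Muc5b and Dnah5 rose (3) and 0 fell, with list means of 12.59 and 12.66 in WT and 13.37 and 13.31 in SCD. Of 7 endothelial markers, 0 rose and Cdh5 fell (difference of -0.47 ± 0.08, adjusted p = 0.0490), with list means of 10.95 and 11.21 in WT and 11.01 and 11.02 in SCD. Fibroblast and smooth muscle markers rose in 1 of 9 cases (Cnn1) and fell in 1 (Col1a1), mesothelial markers fell in 1 of 6 (Upk3b), and mast cell markers did not pass in any of 6. The part of these cell types in the differences of F3, F5, Plat and Gas6 was not tested.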

How the data were processed

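Whole-lung RNA on 2 WT and 2 SCD arrays was labelled by 3' in vitro transcription with biotin, per the labels' protocols. The deposited values, 1 per probe set and array, were taken as log2 expression from their range, since the table names no scale. Affymetrix Expression Console, Partek and RMA are named in the submitters' processing notes, without versions, roles or order. Of 72688 probe sets, 31269 were paired with 1 gene, 1481 with several and 33206 with none by the platform annotation after older symbols were replaced from the RefSeq table of GRCm38.p6; 6732 were controls. Dim genes were kept. The test of SCD against WT used limma (version 3.58.1, under R 4.3.3; lmFit, eBayes with an intensity trend, group as the only term), two-sided, with Benjamini-Hochberg adjustment over 30713 genes. Intervals are 95% intervals from the moderated variance. The number of arrays limits the precision. The scripts were tested in 3 simulations with 200 changed genes each. The fit recovered 12.7% of changes of 1 and 84.7% of changes of 2 on the log2 scale, with at most 7 false calls. A change of 1 was thus mostly missed. The genes, lists, roles and alternatives were chosen with earlier results of these data known. Named were all genes of the set that passed, those that differed by 0.5 without overlap, a fixed list of 16 key genes, other genes of the pathway that passed, and Vwf, F13a1 and the fibrinogen genes; Entpd1, Gp5, Serping1, Kng2, Ggcx, Vkorc1, Plgrkt and the TAM receptors were named after their values were seen. The search for a protease motif in the proteins was not run.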

Additional observations from a re-analysis of the deposited data

How the results depend on the processing

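Under the 11 alternatives of model, normalization, filter and variance, between 3 and 6 of the coagulation genes passed, all of them higher, against 4 in the fit reported. F3, F5 and Plat passed under each of these 11. Gas6 was lost without the intensity trend, with cyclic loess and with the exon control shift removed; F10 was gained without the dimmest 50% of genes, and Tgm2 without the dimmest 25% or 50%, with genes of identical values left out and with quantile normalization repeated. With the replicate number as a block, 4 coagulation genes and 974 genes in all passed; arrays of the same number did not deviate together (r = -0.002 over 30713 genes, which are not independent), so the number is not read as a pairing. At an adjusted p of 0.01, 1 coagulation gene (F3) and 286 genes passed (248 higher, 38 lower), and at 0.1, 6 and 1756 (1285 higher, 471 lower). The number of lower calls over all genes was 114 without the intensity trend, 322 without the dimmest 50% of genes and 573 with the exon control shift removed, against 195. With 1 array left out, from 0 to 3 coagulation genes passed, and over all genes from 0 to 786 (0 to 643 higher, 0 to 143 lower); the lone array was then assumed to vary like the other group. Signs turned in 7 genes that did not pass (F2, F9, F11, F13b, Kng1, Serpinc1 and Tfpi) when the exon control shift was removed, and in 2 or 3 such genes with each array left out. With 1 array left out, the difference moved by over 1.5 times or turned in 17 of the 25 genes that did not pass, and in 0 of the 4 that passed.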
